A study of Mus musculus with 15 samples.

Results

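The genes described here are 43 genes of the cell cycle and of DNA replication, followed in bulk RNA of the mouse auditory nerve from the first postnatal week to adulthood. They were taken by gene symbol from a table of 18536 genes, and all 43 were present in it. Of the 43, 25 act in mitosis, 13 act in DNA replication, and 5 are regulators of the cycle (the transcription factors E2f1, Mybl2 and Foxm1 and the cyclins Ccne1 and Ccne2). All 43 passed the filter on low values (a normalized count of at least 10 in at least 3 libraries), as did 16723 genes in all. The study sequenced RNA of auditory nerve dissected out of the cochlea at postnatal days 3, 7, 14 and 21 (P3, P7, P14, P21) and in adults. There were 3 libraries per age and 15 in all, each made from both cochleae of 1 mouse. No age in days is given for the adults, and strain, genotype, sex and litter are not given in the sources used here. The titles of the adult libraries begin with CTRL, whereas those of the other ages begin with the age. Adult age thus coincides with a differently named set of libraries.

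Dividing cells copy their DNA in S phase and separate the copies in M phase. The genes for each phase are switched on in turn, those for replication mostly under E2F transcription factors and those for mitosis mostly under the MuvB complex with MYBL2 and FOXM1, whereas in resting cells the DREAM complex holds both groups down. In the cochlear nerve, Schwann cells, satellite glia and other non-neuronal cells divide around and after birth and then leave the cycle, while the spiral ganglion neurons have stopped dividing before birth.

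Because the members moved together, the DNA just upstream of them is shown first. Promoter sequences came from RefSeq (build GRCm38.p6), which held 37 windows, each from 250 bases before to 50 bases after a transcription start, for 35 of the 43 members. The windows were searched on both strands for 3 short motifs, the cell cycle genes homology region (CHR, letters TTTGAA) and the CCAAT box (letters CCAAT), both known from mitotic promoters, and an E2F-type site (letters TTTNNCGC). The printed stretches are the 160 bases before the start, read 5′ to 3′ on the gene's strand, with matches on either strand in capitals. A capital run of more than 8 letters in the replication genes is a pair of overlapping E2F-type matches on opposite strands. The first 4 are mitosis genes with a CHR match in the printed stretch, and the next 2 are replication genes with E2F-type matches. Pcna is the member with the highest level kept in the adult. The 4 printed mitosis genes kept from 1.52% (Top2a) to 4.47% (Cdk1) of their P3 mean in adults. Ccnb1 and Bub1, not printed, kept 1.21% and 1.61%, and their windows held no CHR match.

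Cdk1: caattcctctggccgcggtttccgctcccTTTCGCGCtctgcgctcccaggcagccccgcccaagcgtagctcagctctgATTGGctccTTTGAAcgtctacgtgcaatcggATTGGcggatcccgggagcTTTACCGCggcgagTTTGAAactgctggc
Top2a: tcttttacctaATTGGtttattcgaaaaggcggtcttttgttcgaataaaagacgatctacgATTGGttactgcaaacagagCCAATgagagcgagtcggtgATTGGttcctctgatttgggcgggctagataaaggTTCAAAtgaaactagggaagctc
Mki67: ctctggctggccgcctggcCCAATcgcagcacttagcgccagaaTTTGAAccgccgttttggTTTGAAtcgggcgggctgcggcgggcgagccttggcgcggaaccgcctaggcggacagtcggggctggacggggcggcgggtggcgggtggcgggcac
Ube2c: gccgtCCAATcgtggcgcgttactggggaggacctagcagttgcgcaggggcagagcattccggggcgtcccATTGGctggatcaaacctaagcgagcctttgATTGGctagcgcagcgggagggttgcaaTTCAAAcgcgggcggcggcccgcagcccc
Mcm5: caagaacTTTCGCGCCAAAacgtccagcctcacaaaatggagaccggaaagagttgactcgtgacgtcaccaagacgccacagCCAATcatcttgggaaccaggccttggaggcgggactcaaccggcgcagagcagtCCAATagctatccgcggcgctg
Mcm6: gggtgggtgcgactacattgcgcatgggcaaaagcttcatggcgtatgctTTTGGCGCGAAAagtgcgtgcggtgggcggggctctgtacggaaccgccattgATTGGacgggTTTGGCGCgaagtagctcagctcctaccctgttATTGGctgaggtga
Pcna: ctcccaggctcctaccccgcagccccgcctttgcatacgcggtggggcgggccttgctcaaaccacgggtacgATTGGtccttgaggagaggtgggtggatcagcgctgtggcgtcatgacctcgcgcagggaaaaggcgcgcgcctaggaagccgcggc

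Cdk1 lies at chr10:69352913-69353072, Top2a at chr11:99024190-99024349, Mki67 at chr7:135716380-135716539 and Ube2c at chr2:164769769-164769928. Mcm5 lies at chr8:75109349-75109508, Mcm6 at chr1:128359706-128359865 and Pcna at chr2:132253181-132253340, and each position covers the printed upstream stretch only. A CHR match was present in 16 of the 21 mitosis genes with a window, or 76.2%, in 1 of 11 replication genes (Mcm2, named after its value was seen) and in 0 of 3 regulators. Of all 27025 genes with a RefSeq promoter of that length, 20.2% held one. A CCAAT match was present in 18 of 21 mitosis genes and 8 of 11 replication genes, against 41.1% of all genes. An E2F-type match was present in 7 of 11 replication genes, or 63.6%, and in 1 of 21 mitosis genes (Cdk1), against 5.93% of all genes. Among the 14189 genes with a window that were in the data, the shares were 15.1% for CHR, 41.8% for CCAAT and 8.37% for E2F-type matches. A match describes letters in these windows, and binding was not measured.

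The libraries held 35250155 to 42258738 reads each, as recovered from the normalized counts, in which 1 read was worth 0.843 to 1.22, so that a floor of 3 reads corresponds to 2.53 to 3.65. Markers of the labelled tissue were present in every library. The lowest value of the neuronal gene Slc17a7 was 2549. Genes of the surrounding bone and cartilage were also present at the youngest ages, with the osteoclast gene Acp5 at 26868 to 49405 at P3 and 27.3 to 57.2 in adults. Some libraries of P14 and P21 stood apart for the members. P14 replicate 1 was the highest of its age for 41 of 43 members, and P21 replicate 1 for 42 of 43. Their median ratios to the mean of the other libraries of their age were 1.54 and 1.96. These libraries, with P21 replicate 2 and adult replicate 3, were also the 4 in which the Y-linked gene Eif2s3y was at most 27 normalized counts, against at least 1576 in the other 11 libraries, so sex, as read from that gene, was not balanced over ages.

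All 43 members differed over the 5 ages by the F test of limma on log2(normalized count + 1) at a Benjamini-Hochberg adjusted p under 0.05, as did 85.4% of all genes tested. The members' share therefore stands against a background in which most genes differed. The mean level of the 13 replication genes was 9.99 to 10.07 on the log2 scale at P3 and 7.85 to 8.0 in adults, and that of the 25 mitosis genes was 9.57 to 9.69 and 4.94 to 5.45. The difference between these means was also taken within each library. Scaling between libraries cancels from it except through the 1 added to each count, which weighs most at low counts. The difference was 0.31 to 0.50 at P3, 0.74 to 0.76 at P7 and 1.28 to 1.80 at P14 (1.34 to 1.80 without replicate 1). At P21 it was 1.25 to 1.97 (1.64 to 1.97 without replicate 1), and in adults 2.40 to 3.06. The ranges of P3, P7 and adults overlapped with no other age, while those of P14 and P21 overlapped each other. Mitosis genes thus lay further below replication genes at each of the later ages than at P3. In bulk RNA, fewer dividing cells and less RNA per dividing cell cannot be told apart.

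**Figure D1:**
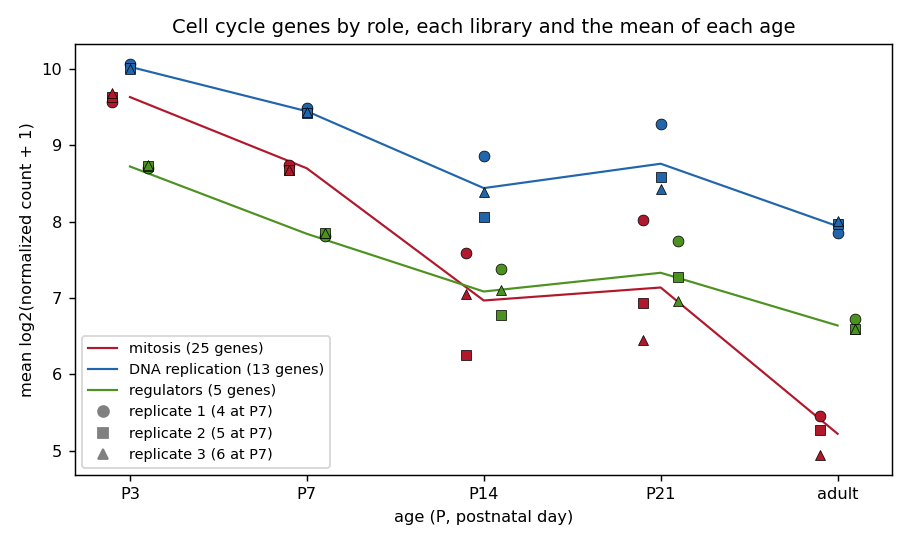
Mean log2(normalized count + 1) of the 25 mitosis, 13 replication and 5 regulator genes in each of the 15 libraries, by age, with lines through the means of each age. Libraries of P3, P7 and adults sit close together, and those of P14 and P21 are spread, with replicate 1 highest at both ages.

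Between P3 and P7, 21 of 43 members fell and 0 rose (limma, adjusted p under 0.05), where 12.8% of all genes tested fell and 15.4% rose. These were 9 of 25 mitosis genes, 7 of 13 replication genes and 5 of 5 regulators. The median change over the members was -0.89 on the log2 scale, against -0.02 over all genes tested. The libraries of P7 lay below those of P3 without overlap for 42 of 43 members, as for 27.4% of all genes, Pcna being the exception.

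Plk1, a kinase that drives entry into and passage through mitosis, had 375, 418 and 489.7 normalized counts at P3 and 209.7, 189.8 and 187 at P7. Every P7 library was below every P3 library, and the change was -1.12 ± 0.26 on the log2 scale (SE, adjusted p = 0.00749, limma, n = 3 and 3). Tpx2, which builds the spindle and activates Aurka, had 1182, 1260.3 and 1411 at P3 and 652, 658 and 637 at P7. Its change was -0.98 ± 0.23 (adjusted p = 0.00665, limma). Among the regulators, Foxm1, the transcription factor of the late cycle, had 847, 953 and 1014 at P3 and 474, 457 and 477 at P7, without overlap, and it changed by -0.99 ± 0.19 (adjusted p = 0.00219, limma). Mybl2, which joins the MuvB complex in dividing cells, went from 264, 284 and 259.9 to 134, 129 and 148. Its change was -0.97 ± 0.25 (adjusted p = 0.0108, limma). These 4 genes, with the replication helicase genes Mcm4 and Mcm6, were the 6 members called lower under every alternative setting.

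E2f1, which turns on replication genes at the start of S phase, had 342, 346 and 406 at P3 and 174, 167 and 189.7 at P7. Ccne1, the cyclin partner of CDK2 at the entry into S phase, had 383, 388 and 375 and then 202, 233 and 212. Its P7 libraries were all below its P3 libraries, and it fell by 0.82 on the log2 scale (adjusted p = 0.0168, limma), with an adjusted p of 0.0594 without P7 replicate 4. Mki67, which coats mitotic chromosomes and is the usual marker of proliferating cells, had 3959, 4579 and 5177 at P3 and 1899.8, 2128 and 2409 at P7. These libraries did not overlap either, yet its change of -1.09 ± 0.52 did not pass the test (adjusted p = 0.131, limma). The test used 1 estimate of the spread per gene over all 15 libraries. For Mki67 the highest library was 1.31 times the lowest at P3, while at P21 it was 3.71 times the lowest. Fitted on the P3 and P7 libraries only, 42 members were called lower, and the share of all genes called in that fit is not given here. Leaving out any 1 of the 6 P3 and P7 libraries left 9 to 13 called.

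Markers of other cells also changed in this interval. Of the osteoclast list, 5 of 10 genes fell and 0 rose, and its summed level was 89021 to 154900 at P3 and 35774 to 54654 at P7. Of the macrophage list, 5 of 8 fell, with sums of 22408 to 29725 and then 15417 to 17696. Of the cartilage list 6 of 10 fell and 1 rose, of the fibroblast list 4 of 10 fell and 2 rose, and of the immature Schwann cell list 4 of 8 fell and 0 rose. The fibroblast sum was 591720 to 895240.0 at P3 and 433190 to 555220 at P7, and the immature Schwann cell sum 19751 to 26504 and 16734 to 18485. Of the myelinating Schwann cell list, 7 of 10 rose and 0 fell. The part of these cells in the members' fall was not tested. Of the marrow lists, 0 of 11 erythroid and 0 of 11 marrow myeloid genes were called in either direction, and 1 of 11 B lymphoid genes was called higher.

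**Figure D2:**
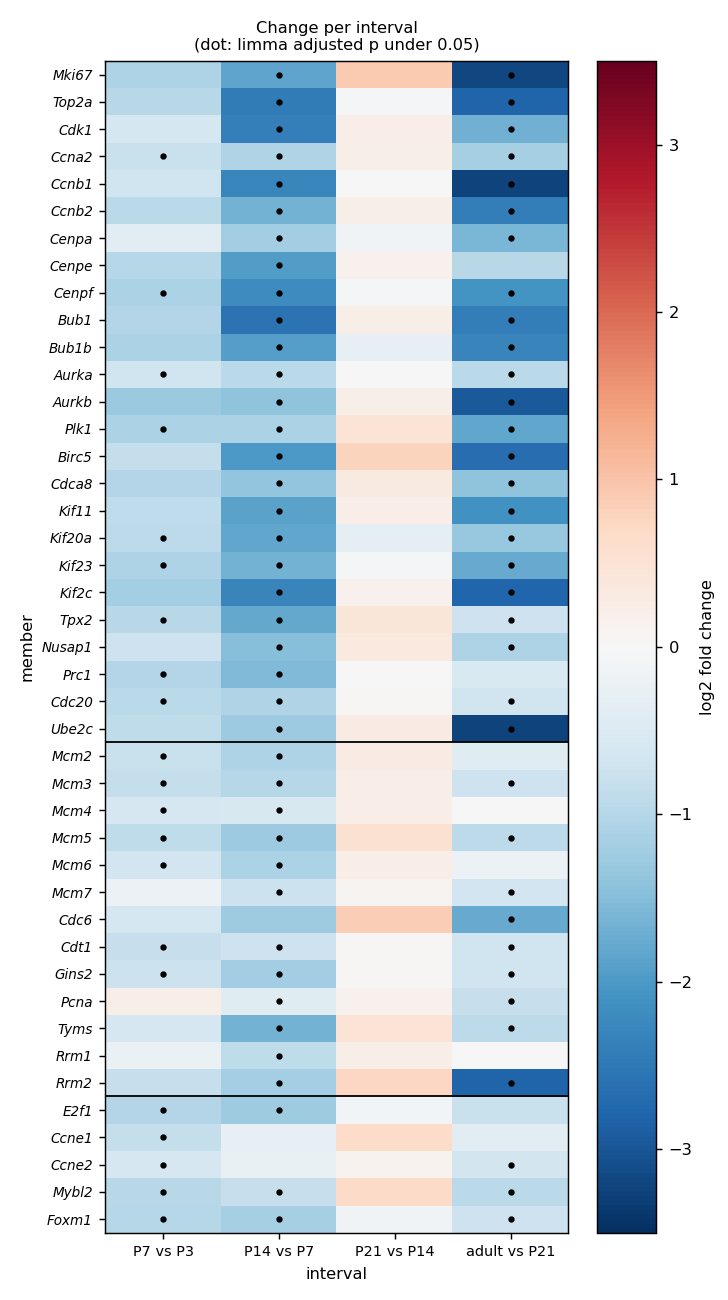
Log2 fold change of each of the 43 members over 4 intervals (columns), by limma, with a dot where the adjusted p was under 0.05 and lines between mitosis, replication and regulator genes. There are 21, 40, 0 and 35 dots from left to right, all on negative changes.

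Between P7 and P14, 40 of 43 members fell and 0 rose, where 23.8% of all genes tested fell and 24.3% rose (limma). All 25 mitosis genes, 12 of 13 replication genes and 3 of 5 regulators were among them. Cdc6, Ccne1 and Ccne2, named after their values were seen, did not pass. The median change was -1.26, against -0.02 over all genes tested, and 32 of the 40 fell at least 2-fold. The share of all genes that fell at least 2-fold was not counted. Without P14 replicate 1 and P21 replicate 1 together, 41 members fell and the median was -1.71. Without P14 replicate 2, 31 members fell and the median was -1.05. The libraries of P14 lay below those of P7 without overlap for 41 members, against 31.1% of all genes.

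The largest changes were in mitosis genes. Cdk1, the kinase that triggers mitosis, had 777, 743 and 597 normalized counts at P7 and 223, 68.4 and 151 at P14. The highest P14 library was well below the lowest of P7, and the change was -2.40 ± 0.40 (SE, adjusted p = 0.000276, limma). Bub1, a kinase of the spindle checkpoint, had 291, 279 and 278 at P7 and 100.3, 14.3 and 65.5 at P14, and it changed by -2.60 ± 0.62 (adjusted p = 0.00364, limma). This was -1.79 without P14 replicate 2, its lowest library, with an adjusted p of 0.013. Cenpf, a protein of the kinetochore, had 681, 682 and 679 at P7 and 172, 88.8 and 211 at P14. Its P7 libraries agreed closely, whereas its P14 libraries differed by more than 2-fold. Top2a, which untangles replicated DNA, went from 2371, 2222 and 2192 to 689, 216 and 481, a change of -2.44 ± 0.63 (adjusted p = 0.00604, limma). For Mki67 the P14 libraries held 1194, 289 and 598, all below P7. Its change of -1.85 ± 0.52 (adjusted p = 0.00932, limma) was -1.34 without P14 replicate 2, with an adjusted p of 0.0504. Without P14 replicate 1 and P21 replicate 1 together, the changes were larger, at -2.77 for Cdk1, -3.15 for Bub1, -2.81 for Top2a and -2.36 for Mki67.

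Among the replication genes, Tyms, which makes thymidylate for DNA synthesis, had 470.0, 411 and 415 at P7 and 173, 94.9 and 151 at P14. It changed by -1.66 ± 0.21 (adjusted p = 2.63e-05, limma), and no library of P14 reached those of P7. Rrm1, the large subunit of ribonucleotide reductase, had 2204, 2352 and 2307 at P7 and 1337, 1235 and 1158 at P14. Its change was -0.88 ± 0.14 (adjusted p = 0.000135, limma). Pcna, the sliding clamp of the replicative polymerases, behaved otherwise in the first interval. It had 1744, 1626 and 1539 at P3, 1988, 1920.3 and 1724 at P7, and 1639.7, 1315 and 1276 at P14. The P3 and P7 libraries overlapped, while every P14 library was below every P7 library.

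Whether the second interval differed from the first was tested as the difference of the changes. The interval from P7 to P14 is longer than that from P3 to P7. Whole changes were compared, not changes per day. For Tyms it was -1.09 ± 0.36 (adjusted p = 0.0388, limma) and for Pcna -0.62 ± 0.21 (adjusted p = 0.0439, limma). These were the only members of 43 called, both lower, where 14% of all genes were called lower and 15.4% higher. Leaving out any 1 P3, P7 or adult library, or P14 replicate 2 or 3, left 0 or 1 called. Pcna also lost its call without P21 replicate 1 (adjusted p = 0.0524, limma). Leaving out P14 replicate 1 gave 5, and leaving out both P14 replicate 1 and P21 replicate 1 gave 12. In this interval 9 of 10 osteoclast markers and 5 of 8 macrophage markers also fell, to sums of 4837 to 5219 and 9893 to 14788, and 5 of 8 neuronal markers rose. Of the fibroblast list 5 of 10 fell and 0 rose, and of the immature Schwann cell list 1 of 8 fell and 4 rose. The part of these cells in the members' fall was not tested.

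**Figure D3:**
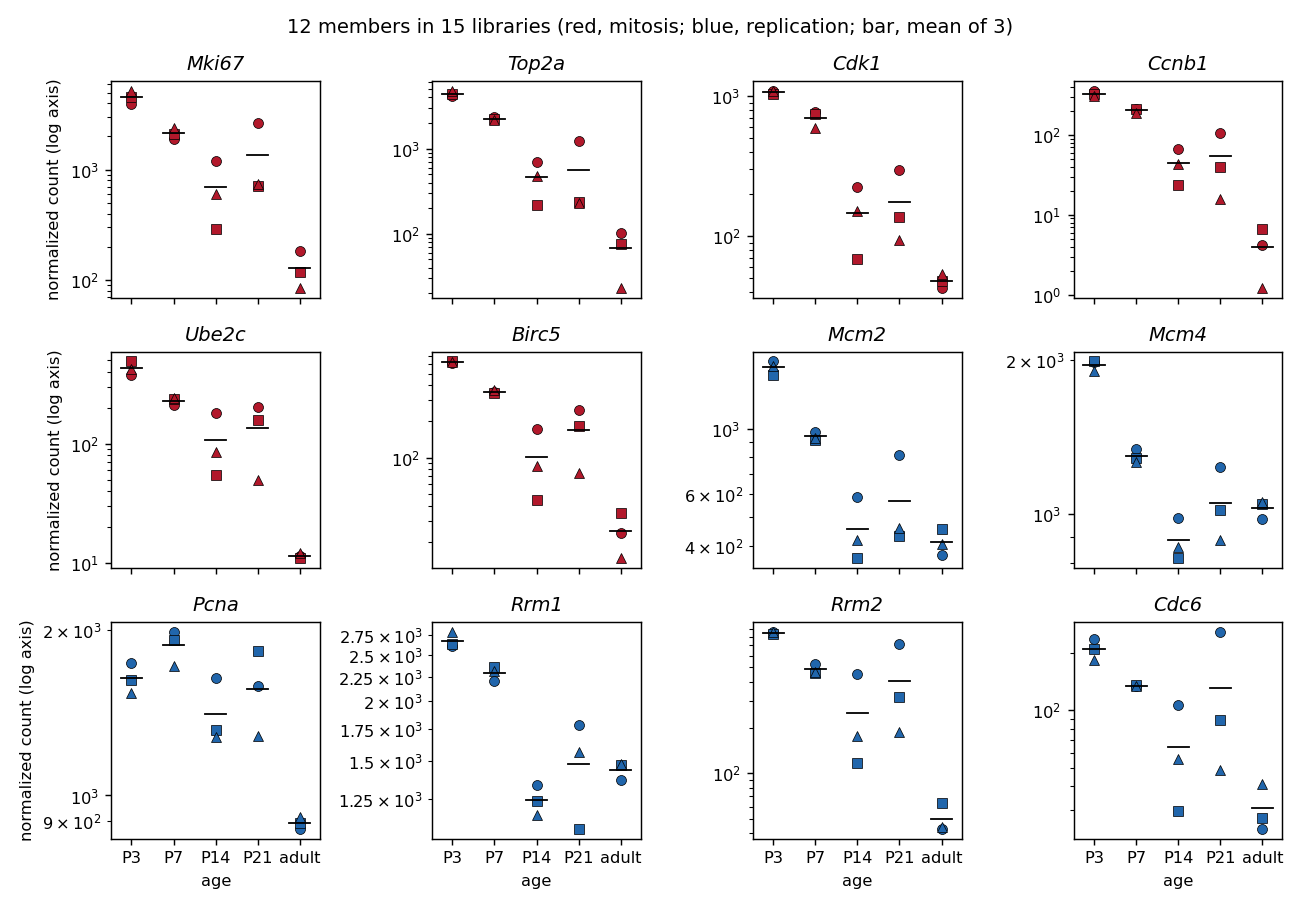
Normalized counts (log axis) of 12 members in each of the 15 libraries by age, with bars at the means of 3. Mitosis genes in red fall furthest in adults, while Mcm4, Pcna and Rrm1 in blue keep 52.3% or more of their P3 mean.

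Between P14 and P21, 0 of 43 members passed the test in either direction, where 6% of all genes tested fell and 3.29% rose (limma). In simulated data the fit recovered 37.3% of 1.5-fold and 58.2% of 2-fold changes in this interval. The simulation changed genes drawn from all those tested, with 1 spread per gene over all ages. Its shares are therefore not those of the members, whose spread was wider at these ages. At an unadjusted p under 0.05 there were 4 members (Mcm4, Tyms, Ccne1 and Mybl2), all higher at P21. The share of all genes at that p was not counted. DESeq2 on the recovered reads called 2 members higher, Ccne1 by 0.66 and Mybl2 by 0.70 log2. Of the 16723 genes it called 1063 higher and 1456 lower. The median change was 0.20, against 0.00 over all genes tested, and it was -0.11 without P21 replicate 1 and 0.45 without P14 replicate 1. The libraries of the 2 ages overlapped for all 43 members, where 13.2% of all genes lay lower at P21 without overlap. The share of all genes higher without overlap was not counted.

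The spread within these ages was wider than at P3 and P7. The highest library was a median of 1.13 times the lowest over the members at P3 and 1.12 times at P7, but 1.89 times at P14 and 2.20 times at P21. For mitosis genes the median was 2.69 times at P14 and 3.12 times at P21. Mki67 had 2658, 717 and 736 normalized counts at P21, so that replicate 1 lay above every P7 library. The same held for Rrm2, the small subunit of ribonucleotide reductase, with 716, 318 and 186, and for Cdc6, which loads the helicase onto origins, with 256, 88.4 and 48.9. Cdc6 in P21 replicate 1 also exceeded its 236, 209 and 182 at P3. Ccne1, with 368, 299 and 182, Ccne2, with 290.1, 207 and 201, and Mybl2, with 161, 141 and 87.1, completed the 6 members for which P21 replicate 1 was above all of P7.

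Markers of blood-forming marrow moved with the members in these libraries. Of 33 erythroid, marrow myeloid and B lymphoid markers, P14 replicate 1 was the highest of its age for 32 and P21 replicate 1 for 29. The summed marrow myeloid level was 6623, 1579.5 and 1823 over P14 replicates 1 to 3 and 16633, 4553 and 2592 over those of P21. The erythroid sum was 35510, 17280 and 17609 at P14. At P21 it was 42051, 51194 and 20291, highest in replicate 2. The mean log2 level of the same list at P21 was highest in replicate 1, at 10.2, 9.8 and 8.7. The B lymphoid sum without Ebf1, a gene abundant in every library and left out after its values were seen, was 1232, 335 and 611 at P14 and 1356, 582 and 376 at P21. None of these markers was at 0 in either replicate 1. At P3 and P7, where the mean of every member was above its mean at P14, the marrow myeloid sum was 624 to 4661 and the erythroid sum 10820 to 22728. The part of marrow cells, or of sex, in the level of the members at P14 and P21 was not tested.

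**Figure D4:**
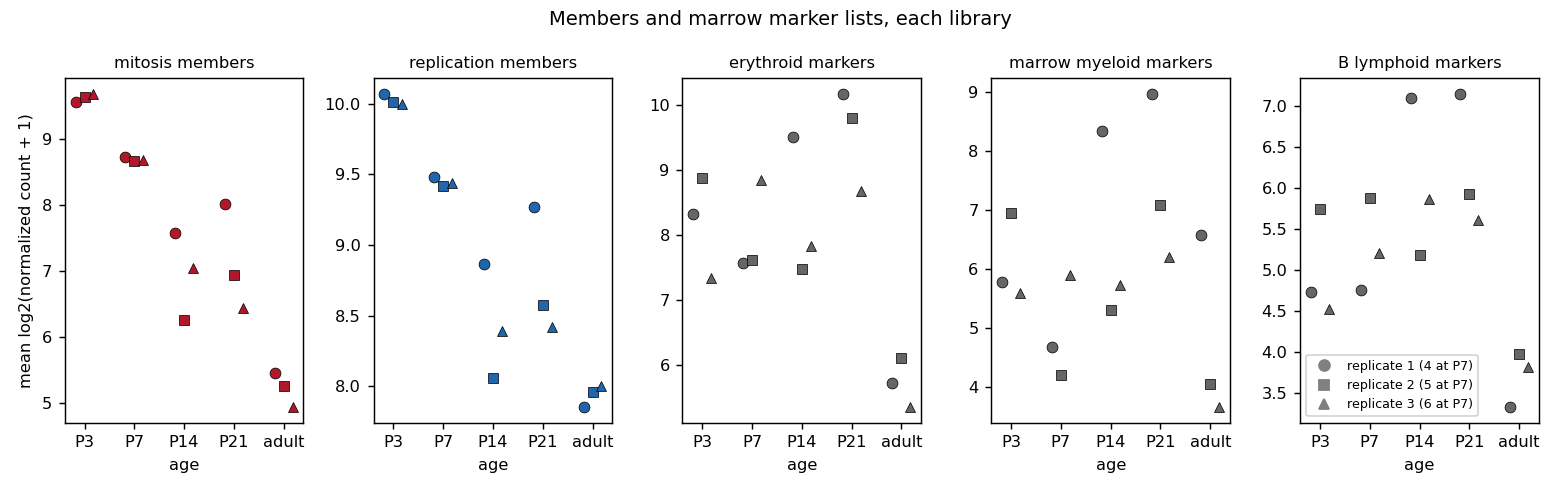
Mean log2(normalized count + 1) of the mitosis and replication genes and of 3 marrow marker lists in each library, by age. Replicate 1 is the highest of P14 and of P21 in all 5 panels, and at P3 and P7 the members are high while the marrow lists are not at their highest.

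The change from P14 to P21 differed from that of P7 to P14 for 19 of 43 members, all towards a smaller fall or a rise after P14, where 9.73% of all genes were called in that direction and 13.3% in the other (limma). For Tpx2 the difference was 2.21 ± 0.39 (adjusted p = 0.00156, limma) and for Tyms 2.13 ± 0.36 (adjusted p = 0.00124, limma). Their own changes after P14 were 0.41 and 0.47 log2, neither called. The count was 4 without P14 replicate 2, 9 without P14 replicate 3, 12 without P7 replicate 4, 35 without P21 replicate 3, and 28 without P14 replicate 1 and P21 replicate 1 together.

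Between P21 and the adult, 35 of 43 members fell and 0 rose, where 24.1% of all genes tested fell and 25.4% rose (limma). They comprised 23 of 25 mitosis genes, 9 of 13 replication genes and 3 of 5 regulators, with a median change of -1.08, against 0.00 over all genes. For 34 members the adult libraries lay below those of P21 without overlap, against 27.1% of all genes.

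Ube2c, the enzyme with which the anaphase-promoting complex marks cyclins for destruction, had 202, 157 and 49.9 normalized counts at P21 and 11.4, 10.9 and 12.2 in adults. The 3 adults were nearly equal, and the change was -3.24 ± 0.46 (SE, adjusted p = 0.00024, limma). Ccnb1, the cyclin that activates CDK1, had 107, 40.1 and 15.7 at P21 and 4.16, 6.56 and 1.22 in adults. The last value is a single read, under the floor of 3 reads. Mki67 had 185, 118 and 85.1 in adults, without overlap with P21, and it changed by -3.17 ± 0.52 (adjusted p = 0.000514, limma). Birc5, a member of the chromosomal passenger complex with Aurkb, had 251, 185 and 75.3 at P21 and 23.9, 35.0 and 14.6 in adults, a change of -2.67 ± 0.47 (adjusted p = 0.000834, limma). Without P21 replicate 1 the changes were -2.84 for Ube2c, -2.56 for Ccnb1, -2.55 for Mki67 and -2.31 for Birc5, all still called. Those of Ccnb1 and Mki67 were thus more than 1.5 times smaller as a fold. Without P21 replicate 3 they were -3.84 for Ube2c and -3.91 for Ccnb1.

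In the replication list Rrm2 fell by 2.80 on the log2 scale, to 42.7, 63.4 and 43.8 in adults (adjusted p = 0.000569, limma), and by 2.28 without P21 replicate 1. Its partner Rrm1 did not pass, with 1781, 1080.5 and 1562 at P21, 1365, 1470.0 and 1474 in adults and a change of -0.01 ± 0.14. Mcm4 had 1234, 1018 and 888 at P21 and 977, 1044 and 1052 in adults, so the ages overlapped, and its change was -0.02 ± 0.10. Mcm2 and Mcm6 likewise did not pass, at -0.41 and -0.21 log2, nor did the mitosis genes Cenpe and Prc1 or the regulators E2f1 and Ccne1. Pcna fell by 0.80, to 869, 893 and 915 in adults (adjusted p = 0.000387, limma).

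The number of members called in this interval depended on the libraries used. It was 32 without P14 replicate 1 and P21 replicate 1, with a median change of -0.78, and 22 when only the P21 and adult libraries were fitted. It was 15 without the 4 libraries low in Eif2s3y, a fit in which P21 replicate 3 was the only P21 library and was taken to vary like the other groups. Of the 35 members, 14 were called under every alternative setting, among them Mki67, Top2a, Ccnb1, Ube2c, Birc5, Plk1, Rrm2 and Pcna. Cdc20, Cdt1 and Gins2 lost the call in 9 or 10 of 28 settings, and without P21 replicate 1 Cdc6, Mcm3 and Tpx2 lost it too. The marrow lists fell as well, with 11 of 11 erythroid, 7 of 11 marrow myeloid and 9 of 11 B lymphoid genes lower in adults, and so did 9 of 10 osteoblast, 7 of 10 fibroblast and 6 of 8 macrophage genes. The adult sums of the 3 marrow lists were 2686 to 4867, 322 to 3027 and, without Ebf1, 109 to 156. The part of these cells in the members' fall was not tested.

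From P3 to the adult all 43 members fell, where 34.3% of all genes tested fell and 34.4% rose (limma). The median change was -3.10 on the log2 scale, against -0.01 over all genes tested, and 39 members fell at least 2-fold. How many of all genes fell by that much was not counted. No adult library overlapped with a P3 library for any member, as for 37.8% of all genes in that direction. All 43 were called under every alternative setting, with 0.0159 as the highest adjusted p. Over the same span 10 of 10 osteoclast, 10 of 10 fibroblast, 9 of 10 osteoblast, 7 of 10 cartilage, 8 of 8 macrophage and 9 of 11 erythroid markers were lower, with a fibroblast sum of 65500 to 73686 in adults. Of the immature Schwann cell markers 2 of 8 were lower and 4 higher, 0 of 11 marrow myeloid markers were called, and 7 of 10 myelinating Schwann cell markers were higher. Their part in the members' fall was not tested.

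The level kept in the adult differed between roles in its median and overlapped in its range. As a percentage of the P3 mean, mitosis genes kept a median of 4.21%, replication genes 21.9% and regulators 24.7%. Of the 25 mitosis genes 19 kept under 10%, from 1.21% for Ccnb1 to 16.8% for Aurka. Top2a had 4115, 4429 and 4775 at P3 and 103, 76.6 and 23.1 in adults, or 1.52% of its P3 mean, and changed by -6.26 ± 0.63 (SE, adjusted p = 1.06e-06, limma), or -5.62 without adult replicate 3. Kif2c, a kinesin that takes apart microtubules at the centromere, had 19.8, 1.09 and 6.08 in adults, and the middle value is 1 read. Its change of -6.16 was -5.31 without adult replicate 2 and -6.97 without adult replicate 1. Aurka, the kinase of the spindle poles, was the mitosis gene with the most left, with 363, 441 and 359 at P3 and 73.9, 61.3 and 60.8 in adults. Next to it was Cdc20, the activator of the anaphase-promoting complex, at 16.5%.

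Most replication genes kept more. The lowest was Rrm2, at 5.90% of its P3 mean, and 15 of the 25 mitosis genes lay below it. The other 12 lay between 14.8% for Cdc6 and 54.5% for Pcna, and 9 of these 12 lay above the highest mitosis gene. With Rrm2 set aside, which was done after its value was seen, 23 of 25 mitosis genes lay below the lowest replication gene. Pcna, Rrm1 at 53.6% and Mcm4 at 52.3% were the replication genes with the most left, and Mcm4 changed by -0.93 ± 0.10 (adjusted p = 2.55e-06, limma). Among the regulators, Ccne1 kept 54.1% and Ccne2 39.4%, while Foxm1 kept 12.5% and E2f1 11.7%. Foxm1 and E2f1 were thus closer to the mitosis genes than the E cyclins were.

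**Figure D5:**
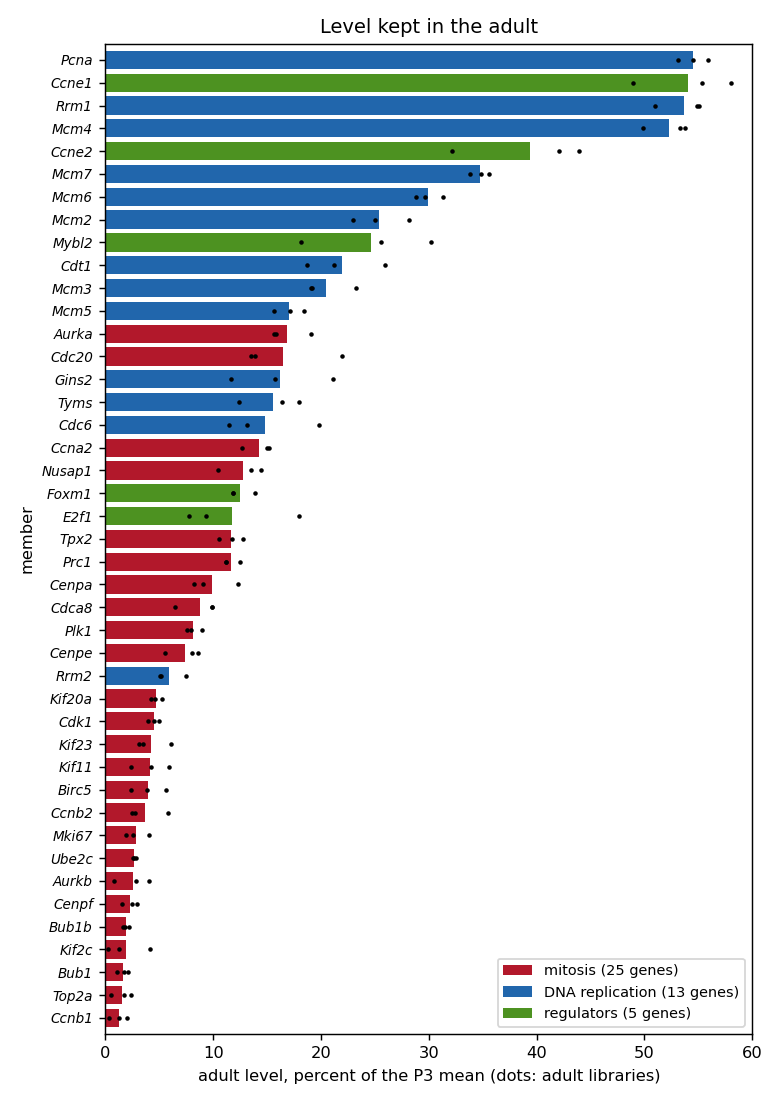
Adult level of each member as a percentage of its P3 mean (bars, with dots for the 3 adult libraries), ordered and coloured by role. Mitosis genes fill most of the lower places, at 16.8% or less, and Pcna, Ccne1, Rrm1 and Mcm4 are at 52.3% or more.

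The 6 MCM genes encode the subunits of 1 ring-shaped helicase, in which each occurs in a single copy, so their levels can be set beside each other per length of transcript. In normalized counts per kilobase, the P3 means ran from 459 for Mcm3 to 735 for Mcm6, a ratio of 1.60. In adults they ran from 84.3 for Mcm5 to 285 for Mcm4, a ratio of 3.38, with Mcm6 at 219.8, Mcm7 at 160, Mcm2 at 122 and Mcm3 at 94.2. The subunits were therefore less even in adults than at P3 on this scale. Mcm5 fell most between these ages, from 1718, 1637 and 1659 normalized counts to 261, 307 and 287, and Mcm4 least, from 1982, 1989 and 1903 to 977, 1044 and 1052. Mcm7, whose change by P7 of -0.21 did not pass the test, kept 34.8% of its P3 level.

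Other genes of the pathway were taken as lists. Of 46 further mitosis genes tested, 45 were lower in adults than at P3 and 1 higher, Anln at 0.83 log2, named after its value was seen. Of 39 further replication genes 32 were lower and 0 higher. Those with the smallest adjusted p included Chaf1b, a subunit of the chromatin assembly factor, at -4.42, Pole, the leading-strand polymerase, at -3.00, and the condensin gene Ncaph at -3.86. Of 14 genes that drive the G1 phase, 13 were lower and 0 higher. Ccnd1, the D-type cyclin of that phase, had 4043, 4626 and 4353 normalized counts at P3, 2348, 2192 and 2416 at P7 and 629, 506 and 625 in adults. It was called lower at P21 than at P14 as well (-0.56, adjusted p = 0.0239, limma), where no member was, but this call was lost in 5 of 28 settings, with 0.193 as the highest adjusted p, among them without P14 replicate 3 or P21 replicate 3 and when only those ages were fitted. Its kinase partners Cdk4 and Cdk6 were at -2.10 and -2.37 in adults against P3.

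Genes that restrain the cycle did not go one way. Of 23 tested, 12 were lower and 7 higher in adults than at P3 (limma), where 34.3% of all genes tested were lower and 34.4% higher, so the count of higher genes is near the background. Cdkn1b, the inhibitor p27 of cyclin-dependent kinases, had 3956, 4631 and 4236 normalized counts at P3, 6655, 6748 and 7009 at P7, and 6494, 8290 and 7214 in adults. It was higher by 0.67 at P7 (adjusted p = 0.00108, limma) and by 0.77 in adults, and no P3 library reached a P7 or adult library. E2f6, a repressive E2F, was higher by 1.10, Rbl2, the pocket protein of the DREAM complex in resting cells, by 0.82, and Lin52, a MuvB subunit, by 1.03. MuvB also acts with MYBL2 and FOXM1 in dividing cells, so its subunits are not restraints alone. Cdkn2d was higher by 0.57, Tob1 by 0.41 and Lin37, also of MuvB, by 0.32, a call lost without P3 replicate 3 (adjusted p = 0.0692) or adult replicate 3 (adjusted p = 0.0641). Against these, Cdkn1c, the inhibitor p57, had 11603, 10229 and 9580 at P3 and 1729, 1945 and 1830.2 in adults, a change of -2.51, and Cdkn2c was lower by 2.63 and the growth arrest gene Gas1 by 1.68. Between P14 and P21, when no member was called, 6 of the 39 further replication genes were higher, where 3.29% of all genes were. Prim1, a subunit of primase, was at 0.73 (adjusted p = 0.00234, limma), a call lost in 1 of 28 settings, the fit of only those ages. Rfc4 lost its call in 5, Pold1 in 8 and Lig1 in 9 of 28 settings. Leaving out P14 replicate 3 ended the call of all of these but Prim1, and leaving out P21 replicate 1 ended those of Pold1 and Lig1.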

How the data were processed

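RNA of 15 auditory nerve samples was sequenced after TruSeq library preparation, per the labels' protocols. Per the submitters' processing notes, Partek, TopHat2 and DESeq2 were used with build mm10; annotation, counting and use of strand are not given in the sources used here. The deposited signal is a normalized count per gene, reads divided by 1 factor per library: 99.94% of positive values were whole multiples of 1 read (tolerance 0.1 reads). Because values were normalized, log2(value + 1) was fitted with limma 3.58.1 (trend, robust; R 4.3.3), 1 mean per age over all 15 libraries, for genes at 10 or more in at least 3 libraries. P-values are two-sided, Benjamini-Hochberg adjusted over 16723 genes and called under 0.05. A fold on this scale understates changes of low genes. edgeR 4.0.16 and DESeq2 1.42.0 on recovered reads were alternatives. The fit was tested on simulated data, where over the 4 intervals it recovered 58.2% to 74.6% of 2-fold changes, with 1.44% to 4.96% false calls. Members and lists were chosen with earlier results of these data known. All members could be named, other pathway genes by smallest adjusted p (up to 4 per list and comparison) or, for the G1 and restraining lists, by an opposite direction. Lengths came from GENCODE transcripts (build GRCm38). No libraries of an age matched within sampling noise (mean chi-square per gene at least 10.86). Nothing states separate litters. Same-numbered libraries of different ages did not deviate together in every pair. Elane and Ahsp are not analysed here.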

Additional observations from a re-analysis of the deposited data

How the results depend on the processing

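No alternative reversed the direction of a called member, and all 43 members stayed lower in adults than at P3 and different over the 5 ages under every alternative run. For P7 against P3, 42 members were lower with only those ages fitted, 34 with limma-voom on recovered reads and 36 without the 4 libraries low in Eif2s3y, and the median was -0.84 after quantile normalization. For P21 against P14, 2 members were higher by DESeq2, which called 1063 of the 16723 genes higher. For adult against P21, 22 were lower with only those ages fitted and 15 without the 4 libraries. For adult against P3, the median was -2.94 after quantile normalization and -3.02 with a pseudocount of 10. Members whose P7 to P14 change differed from the earlier one numbered 4 by DESeq2, 4 by limma-voom, 17 without the 4 libraries and 12 without P14 replicate 1 and P21 replicate 1 together, a setting chosen after seeing the data. The causes were not tested, except that a fit of only 2 ages uses fewer samples and their own spread. For the fits of only 2 ages, limma-voom and the fits that left out libraries, the share of all genes called is not given here. With 1 library left out at a time, members lower ranged from 9 to 26 (P7 against P3), 31 to 41 (P14 against P7), 0 to 0 (P21 against P14), 29 to 37 (adult against P21) and 43 to 43 (adult against P3). Members higher ranged from 0 to 2 (P21 against P14) and were 0 elsewhere. Medians ranged from -0.89 to -0.83, -1.71 to -1.05, -0.11 to 0.45, -1.40 to -0.78 and -3.15 to -3.06 in that order. The differences between successive intervals ranged from 0 to 5 and from 4 to 35 members. The level kept in adults ranged from 3.96% to 4.71% for mitosis and 19.9% to 23.6% for replication genes. Of called members, 6 of 21, 31 of 40, 14 of 35 and 43 of 43 kept the call under every alternative, in the order of the comparisons with calls. The replicate numbers are shared by all ages but P7. With the replicate block and without P7, 0 members were called at P21 against P14, 32 were lower in adult against P21 and 43 in adult against P3, so the block moved no count by more than 1.5 times. Over 18 same-numbered pairs of libraries the correlations of deviations ranged from -0.229 to 0.319, with 5 over 0.1, and the numbers were not taken to pair the animals. With 3 libraries per age, whole dissected tissue and sex not balanced, changes in cell makeup and in RNA per cell are joined in every value. Ccnb1, Kif2c and Aurkb have 3 or fewer reads in 1 adult library each, so their adult folds are imprecise.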

Other observations

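E2f2, an activating E2F listed with the G1 genes, had 290, 335 and 261 normalized counts at P3 and 242, 222 and 249.8 at P7. It had 336, 102 and 120.2 at P14, 543, 217 and 188 at P21 and 59.3, 30.6 and 23.1 in adults, so that its highest library of all 15 was P21 replicate 1. Its change in adult against P21 was -2.98 (adjusted p = 0.000428, limma).

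P14 replicate 1 was also the lowest library of its age for 8 of 8 oligodendrocyte precursor markers and 8 of 8 endothelial markers. P21 replicate 1 was the lowest for 2 of 8 and 1 of 8. In adults the marrow myeloid sum was 3027, 639 and 322 over replicates 1 to 3, and the mean log2 level of the mitosis genes was 5.45, 5.27 and 4.94. The other lists did not follow that order. The erythroid sum was 2686, 4867 and 3648, and the B lymphoid sum without Ebf1 was 109, 156 and 112. The mean log2 level of the replication genes was 7.85, 7.96 and 8.0.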
